A study of Mus musculus with 24 samples.

Results

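The genes described here are 40 mouse genes of mitosis and the spindle, named one by one and looked up by symbol among the 53801 genes of the count table. All 40 passed the filter on low counts that left 12963 genes to test. No rule on values of these libraries picked them, but earlier results of these data were known when they were chosen. RNA sequencing was performed on ER-Hoxb8 cells, a murine granulocyte-monocyte progenitor line of C57BL/6 origin that is held in its immature state by an estrogen-regulated Hoxb8 oncoprotein, and differentiates toward neutrophils once beta-estradiol is withdrawn. The 6 groups combine 3 lentiviral constructs with a drug or its solvent, at 4 libraries a group: BRD3308-treated WT-ERG cells, BRD3308-treated P199L-ERG cells, BRD3308-treated BB cells, DMSO-treated WT-ERG cells, DMSO-treated P199L-ERG cells and DMSO-treated BB cells. WT-ERG and P199L-ERG are the wild-type and a single-residue variant of the human transcription factor ERG, BB is the empty vector backbone, and BRD3308 is an inhibitor of the histone deacetylase HDAC3. All 6 groups carried the Hoxb8 fusion, and all were washed free of beta-estradiol before 36 h with 5 µM BRD3308 or with DMSO, the dose and time of the methods and the series record, although another passage of the study gives a different dose and time. Each construct was a stable population sorted for GFP, so a difference between constructs can include a difference between lines. The methods report 4 independent experiments per group, but no source says that the 4 libraries came from separate transductions. The p-values therefore measure the spread between these libraries alone.

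Mitosis is driven by CDK1 bound to cyclins, which the CDC25 phosphatases switch on and the transcription factor FOXM1 helps to supply. Polo-like and Aurora kinases then build the spindle, kinetochores attach chromosomes to its microtubules, and the spindle checkpoint holds the cell until every chromosome is attached. Release of the checkpoint lets CDC20 activate the anaphase-promoting complex, which marks cyclins and securin for destruction so that separase can part the sister chromatids, after which a contractile ring divides the cell. Most of these genes are transcribed mainly late in the cell cycle, so that their RNA in a bulk sample is high where many cells divide. In myeloid cells division is known to cease as granulocytes mature. In bulk RNA, fewer cells in mitosis and less of a transcript in each dividing cell cannot be told apart.

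The libraries held 12510036 to 16280939 counts, and no pair of replicates agreed within counting noise. Replicate 4 of DMSO-treated WT-ERG cells and replicate 4 of DMSO-treated P199L-ERG cells stood apart. In them the correlation, across 8771 genes within a library, between exon length and a gene's deviation from its group mean was -0.517 and -0.452, against -0.238 to 0.455 in the other libraries, and 34 and 31 of the 40 genes had their group's highest or lowest value there, against 6 to 28 in the others. Where leaving both out adds or ends a call in a comparison that uses them, or moves a called value by over 1.5 times, the value or count without them is given. *Mpo*, the defining myeloperoxidase of granulocyte-monocyte progenitors, lay between 12310 and 18930 CPM (counts per 1000000 counts, with library totals scaled by TMM factors) in every library. The erythroid markers summed to at most 2.495 CPM, with *Hba-a1* and *Hbb-bt* at 0 in all libraries. Of the mast cell and basophil markers *Fcer1a* was at 0, whereas *Cpa3* lay at 22.2 to 236 CPM, *Mcpt8* at 26.4 to 75.0 CPM and *Prss34* at 0.127 to 1.27 CPM. *Erg* reads were 117 to 124 CPM in BRD3308-treated WT-ERG, 112 to 122 CPM in BRD3308-treated P199L-ERG and 105 to 117 CPM in BRD3308-treated BB cells, and 102 to 110.0, 97.2 to 107 and 89.2 to 98.8 CPM in DMSO-treated WT-ERG, P199L-ERG and BB cells, but the mouse gene count does not check the human transgene.

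Every one of the 40 genes was well expressed: the lowest count in any library was 261 reads, for *Cdc25c*. The genes together took 0.591 to 0.702% of all counts in a library. Per kilobase of exon, the level was highest for *Mki67*, the Ki-67 antigen that coats mitotic chromosomes, at 103 CPM per kb over all libraries, followed by the B-type cyclin *Ccnb2* at 88.9 and the DNA topoisomerase *Top2a* at 83.6 CPM per kb. It was lowest for the phosphatase *Cdc25c* at 4.83 CPM per kb and the kinetochore protein *Cenpf* at 5.23 CPM per kb, with a median of 22.2 CPM per kb and a 21.4-fold span from lowest to highest. Members of 1 complex differed in level per kb: among the 4 subunits of the NDC80 complex, *Spc25* and *Nuf2* stood at 21.0 and 20.5 CPM per kb, *Spc24* at 19.0 and *Ndc80* at 15.3 CPM per kb.

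**Figure D1:**
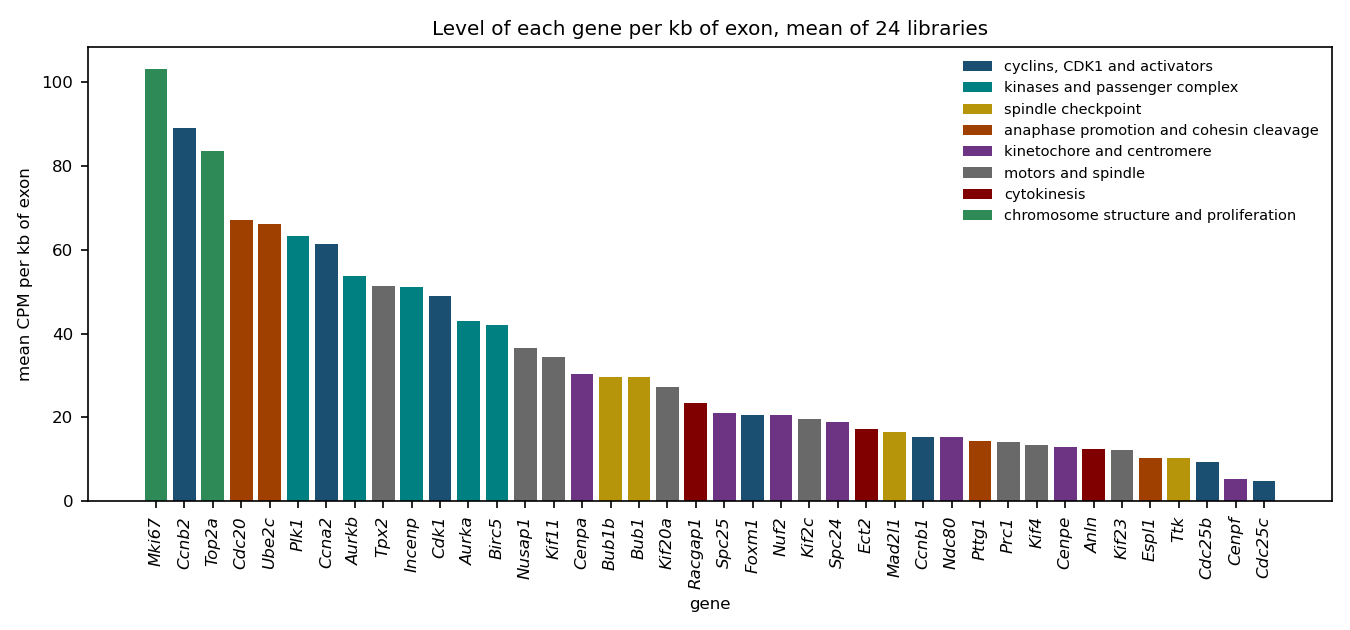
Mean level of the 40 genes over all 24 libraries, in CPM per kilobase of exon on a linear axis from 0, ordered from highest to lowest and coloured by role. *Mki67* (103), *Ccnb2* (88.9) and *Top2a* (83.6) lead, and *Cenpf* (5.23) and *Cdc25c* (4.83) are lowest.

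With BRD3308, more of the 40 genes fell than rose in each construct, by small amounts. A gene is said to have risen or fallen where the adjusted p of edgeR's quasi-likelihood test, corrected over all 12963 genes by the Benjamini-Hochberg method, was under 0.05. In WT-ERG cells 18 fell and 2 rose, where 23.2% of all genes tested were called lower and 24.7% higher. In P199L-ERG cells 16 fell and 4 rose, against 24.1% of all genes called lower and 24.4% higher. In BB cells 14 fell and 6 rose, against 22% of all genes called lower and 24% higher. The median log2 fold change of the 40 genes was -0.13 in WT-ERG, -0.13 in P199L-ERG and -0.097 in BB cells, where the median of all genes tested was -0.0015, -0.0062 and 0.0056. Highly expressed genes fell more often in general. The 6887 genes with a mean level at or above that of the lowest of the 40 include the 40 themselves. Among them 35.2%, 36% and 33.4% fell and 18.7%, 19.1% and 17.8% rose in WT-ERG, P199L-ERG and BB cells. The share of the 40 that fell (45%, 40% and 35%) was near theirs in P199L-ERG and BB cells. Changes were modest in size, from -0.52 to 0.47 on the log2 scale among the genes called, with SEs of 0.034 to 0.12.

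Of the 40 genes, 11 fell in all 3 constructs, namely *Ccna2*, *Plk1*, *Incenp*, *Bub1*, *Ttk*, *Mad2l1*, *Cdc20*, *Ube2c*, *Spc24*, *Kif11* and *Kif4*. A further 4 fell in 2 constructs and 7 in 1 construct, 7 rose in at least 1 construct, none rose in one construct and fell in another, and 11 passed in none. The fold change was below 0 in all 3 constructs for 27 genes and above 0 in all 3 for 5. These tallies over the 3 constructs were not made for all genes tested, so they describe the 40 genes alone. The BRD3308-treated libraries did not overlap the DMSO-treated ones for 24 genes in WT-ERG cells (22 lower, 2 higher), 14 in P199L-ERG cells (12 lower, 2 higher) and 20 in BB cells (14 lower, 6 higher). Of all genes tested, 21.5% were lower and 22.5% higher without overlap in WT-ERG cells, 18.9% and 20.8% in P199L-ERG cells, and 21.8% and 23% in BB cells. The mean log2 CPM of the 40 genes was 6.755 to 6.831 in BRD3308-treated and 6.909 to 6.938 in DMSO-treated WT-ERG libraries, 6.848 to 6.946 in BRD3308-treated and 6.954 to 7.022 in DMSO-treated P199L-ERG libraries, and 6.848 to 6.925 in BRD3308-treated and 6.912 to 6.997 in DMSO-treated BB libraries. On that mean the treated and control libraries were apart in both ERG constructs, narrowly in P199L-ERG cells, and overlapped in BB cells. In replicate order, BB libraries had 6.925, 6.896, 6.913 and 6.848 with BRD3308, and 6.997, 6.972, 6.984 and 6.912 with DMSO. Each treated BB library was thus below the control of the same number, and the overlap came from DMSO-treated replicate 4. It is not a shown difference between constructs. Without the pair of replicate 4 libraries named above, 25 genes fell and 3 rose in WT-ERG cells, 19 fell and 4 rose in P199L-ERG cells, and 16 fell and 7 rose in BB cells. Of all genes tested, 25.2% then fell and 25.9% rose in WT-ERG cells, 24.1% and 24.8% in P199L-ERG cells, and 25.4% and 26.1% in BB cells. In WT-ERG cells *Bub1b*, *Kif23*, *Cenpf*, *Tpx2*, *Nuf2*, *Ect2*, *Espl1* and *Cdc25c* then fell and *Nusap1* rose as well, and *Ccnb1* was lost. In P199L-ERG cells *Aurka* (-0.14, adjusted p = 0.0478), *Kif2c* (-0.16, adjusted p = 0.0437), *Ect2* (-0.16, adjusted p = 0.0115) and *Kif20a* then fell as well. There *Pttg1* rose, and *Ccnb2* and *Racgap1* were lost.

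**Figure D2:**
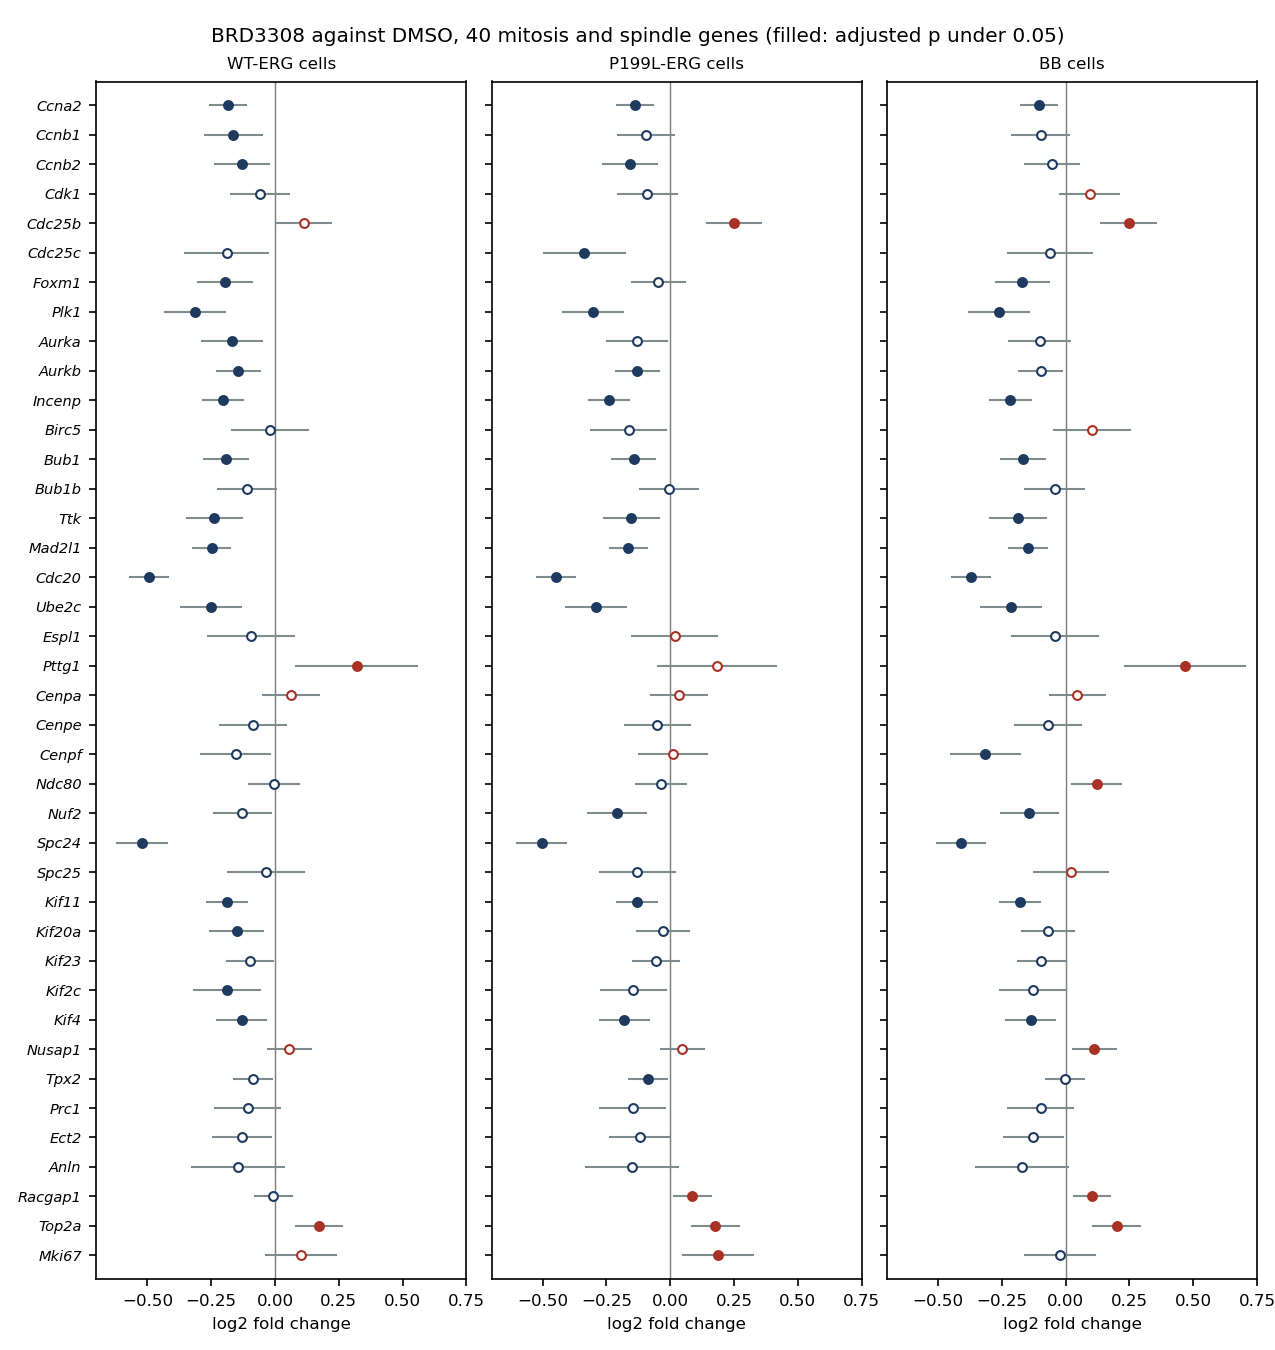
Log2 fold change of each of the 40 genes with BRD3308 against DMSO, in WT-ERG, P199L-ERG and BB cells, grouped by role. Bars are 95% confidence intervals and filled points have an adjusted p under 0.05. *Spc24* (-0.52, -0.50 and -0.41) and *Cdc20* (-0.49, -0.45 and -0.37) are lowest in every construct, and *Top2a* (0.17, 0.18 and 0.20) is filled above 0 in each.

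Promoters of these genes are known to carry CCAAT boxes, bound by NF-Y, and the cell cycle genes homology region (CHR), bound by the MuvB core of the DREAM and B-MYB complexes. RefSeq promoter windows (GRCm38.p6) were matched for 32 of the 40 genes, all but *Aurkb*, *Incenp*, *Cdc25c*, *Tpx2*, *Kif20a*, *Foxm1*, *Spc24* and *Ccna2*. Within 250 bases before the start, on either strand, the letters CCAAT or ATTGG were found in 24 of 32 (75%), against 33.8% of 32851 windows of the same length, and at least 2 such boxes in 15 (46.9%), against 10.1%. The CHR letters TTTGAA or TTCAAA, which can share 1 end base with a CCAAT box, were found in 10 of 32 (31.2%), against 16% of windows, and both motifs in 9 (28.1%), against 5.55%. A CCAAT box was held by 7 of the 8 promoters of genes that fell in all 3 constructs, 4 of the 6 that fell in 1 or 2, 4 of the 7 that rose, and 9 of the 11 with no call. The CHR letters were held by 3, 2, 2 and 3 of these. Genes with opposite responses thus shared the same letters, which is shown by *Cdc20* and *Kif11*, which fell, and *Top2a*, which rose, each with both motifs, beside *Ttk*, which fell with CCAAT boxes alone, and *Mad2l1*, which fell with neither. The 110 bases that end 11 bases before the start are given 5′ to 3′ on the gene's strand, with the motifs in capitals.
Cdc20, chr4:118437354-118437463, minus strand: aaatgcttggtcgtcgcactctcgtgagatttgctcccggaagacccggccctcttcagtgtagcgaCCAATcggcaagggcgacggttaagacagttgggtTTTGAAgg
Kif11, chr19:37376262-37376371, plus strand: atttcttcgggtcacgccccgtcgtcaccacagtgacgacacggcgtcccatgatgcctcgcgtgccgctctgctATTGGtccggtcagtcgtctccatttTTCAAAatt
Ttk, chr9:83834569-83834678, plus strand: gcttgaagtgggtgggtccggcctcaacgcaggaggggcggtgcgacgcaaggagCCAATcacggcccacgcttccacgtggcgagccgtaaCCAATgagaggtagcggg
Mad2l1, chr6:66535101-66535210, plus strand: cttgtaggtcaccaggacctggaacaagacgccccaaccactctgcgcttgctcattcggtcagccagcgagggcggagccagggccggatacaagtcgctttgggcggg
Top2a, chr11:99024200-99024309, minus strand: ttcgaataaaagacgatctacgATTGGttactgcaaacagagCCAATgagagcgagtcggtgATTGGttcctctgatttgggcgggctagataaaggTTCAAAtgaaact

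Within the bases shown, the CCAAT box of *Cdc20* began 53 bases before the start and that of *Kif11* 45, with the CHR letters at 18 and 19 bases. *Ttk* had boxes at 65 and 28 bases, and *Top2a* at 98, 78 and 58 bases with the CHR letters at 23, close to where they stood in *Cdc20* and *Kif11*. Outside the bases shown, *Cdc20* had another box at 8 bases, and *Top2a* had boxes at 227, 189 and 149 bases and the CHR letters at 179.

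Counts by role, here and below, stand beside the 23.2%, 24.1% and 22% of all genes tested that fell in WT-ERG, P199L-ERG and BB cells. The shares that rose were 24.7%, 24.4% and 24%. Each role holds few genes, so its counts describe those genes alone. Among cyclins, CDK1 and their activators, 4 of 7 fell with BRD3308 in WT-ERG cells, 3 fell and 1 rose in P199L-ERG cells, and 2 fell and 1 rose in BB cells. *Ccna2*, cyclin A2, which partners CDK2 and CDK1 through S phase and G2, fell in all 3 constructs. In WT-ERG cells *Ccna2* had 229, 222, 229 and 210.4 CPM with BRD3308, against 250.4, 249.7, 254 and 258 CPM with DMSO. In P199L-ERG cells *Ccna2* had 239.5, 249.7, 236 and 242 CPM with BRD3308, against 270.3, 272, 251 and 271 CPM with DMSO. In BB cells *Ccna2* had 249.6, 248, 254 and 253 CPM with BRD3308, against 273, 270.2, 279 and 258 CPM with DMSO. For *Ccna2*, all BRD3308-treated libraries were below all DMSO-treated libraries in each of the 3 constructs. *Ccna2* log2 fold changes were -0.18 in WT-ERG cells (SE 0.035, adjusted p = 7.4e-05), -0.14 in P199L-ERG cells (SE 0.035, adjusted p = 0.00169) and -0.10 in BB cells (SE 0.035, adjusted p = 0.0145). The fall in BB cells was lost without DMSO-treated BB replicate 3 (-0.089), or with no filter on low counts (adjusted p 0.00497 to 0.0726 over 15 alternatives).

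*Cdc25b*, a phosphatase that starts CDK1 activation, moved the other way. In WT-ERG cells *Cdc25b* had 34.1, 36.7, 35.5 and 34.3 CPM with BRD3308, against 32.6, 33.1, 31.1 and 33.4 CPM with DMSO. In P199L-ERG cells *Cdc25b* had 37.6, 43.8, 37.2 and 39.4 CPM with BRD3308, against 32.9, 34.2, 32.1 and 33.7 CPM with DMSO. In BB cells *Cdc25b* had 39.5, 36.5, 38.1 and 39.9 CPM with BRD3308, against 33.0, 31.2, 33.2 and 32.4 CPM with DMSO. For *Cdc25b*, all BRD3308-treated libraries were above all DMSO-treated libraries in each of the 3 constructs. *Cdc25b* log2 fold changes were 0.11 in WT-ERG cells (SE 0.052, adjusted p = 0.0756), 0.25 in P199L-ERG cells (SE 0.051, adjusted p = 0.000188) and 0.25 in BB cells (SE 0.052, adjusted p = 0.00028). *Cdc25b* rose in P199L-ERG and BB cells, and in WT-ERG cells its libraries were apart without passing the test. *Cdc25c*, which amplifies CDK1 activation at mitotic entry, fell in P199L-ERG cells. In WT-ERG cells *Cdc25c* had 21.8, 22.1, 23.4 and 20.0 CPM with BRD3308, against 25.3, 23.9, 25.7 and 24.6 CPM with DMSO. In P199L-ERG cells *Cdc25c* had 21.5, 22.8, 23.3 and 22.2 CPM with BRD3308, against 25.1, 25.4, 28.0 and 35.3 CPM with DMSO. In BB cells *Cdc25c* had 23.0, 20.6, 23.4 and 21.2 CPM with BRD3308, against 22.5, 23.8, 22.7 and 23.3 CPM with DMSO. For *Cdc25c*, the BRD3308-treated libraries lay below the DMSO-treated libraries in WT-ERG and P199L-ERG cells and overlapped them in BB cells. *Cdc25c* log2 fold changes were -0.19 in WT-ERG cells (SE 0.079, adjusted p = 0.0503), -0.34 in P199L-ERG cells (SE 0.077, adjusted p = 0.000691) and -0.062 in BB cells (SE 0.080, adjusted p = 0.56). Without both replicate 4 libraries the *Cdc25c* change in P199L-ERG cells was -0.22 (adjusted p = 0.00378), and that in WT-ERG cells passed (-0.19, adjusted p = 0.00981).

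*Foxm1*, the transcription factor of G2 and M phase genes, fell in WT-ERG and BB cells. In WT-ERG cells *Foxm1* had 109.8, 102, 101 and 101 CPM with BRD3308, against 123, 118, 120.1 and 113 CPM with DMSO. In P199L-ERG cells *Foxm1* had 112, 123, 119 and 105 CPM with BRD3308, against 131, 122, 116 and 106 CPM with DMSO. In BB cells *Foxm1* had 121, 122, 122 and 122 CPM with BRD3308, against 136, 139, 137 and 135 CPM with DMSO. For *Foxm1*, the BRD3308-treated libraries lay below the DMSO-treated libraries in WT-ERG and BB cells and overlapped them in P199L-ERG cells. *Foxm1* log2 fold changes were -0.20 in WT-ERG cells (SE 0.051, adjusted p = 0.00231), -0.048 in P199L-ERG cells (SE 0.051, adjusted p = 0.463) and -0.17 in BB cells (SE 0.051, adjusted p = 0.00719). Of the B-type cyclins, which carry CDK1 into mitosis, *Ccnb2* fell in WT-ERG (-0.13, adjusted p = 0.0419) and P199L-ERG cells (-0.16, adjusted p = 0.0124) and stood at -0.053 in BB cells (adjusted p = 0.431), and *Ccnb1* fell in WT-ERG cells (-0.16, adjusted p = 0.0143). The *Ccnb2* call in WT-ERG cells was lost without any 1 of BRD3308-treated WT-ERG replicates 1, 2 and 4 and DMSO-treated WT-ERG replicates 3 and 4 (-0.14 to -0.10), or with RLE scaling, no filter on low counts and DESeq2 (adjusted p 0.0188 to 0.13 over 15 alternatives). In P199L-ERG cells *Ccnb2* was lost without DMSO-treated P199L-ERG replicate 4 (-0.093), or with both replicate 4 libraries of DMSO-treated ERG cells left out together (adjusted p 0.00344 to 0.0588 over 15 alternatives). That of *Ccnb1* in WT-ERG cells was lost without DMSO-treated WT-ERG replicate 4 (-0.12), or with both replicate 4 libraries of DMSO-treated ERG cells left out together (adjusted p 0.00242 to 0.0725 over 15 alternatives). *Cdk1*, the kinase itself, passed in no construct, at -0.059, -0.089 and 0.094 in WT-ERG, P199L-ERG and BB cells. The replicate number, used as a block, was taken to pair treated and control libraries in P199L-ERG and BB cells. In P199L-ERG cells the same number was the best match for only 2 of the 4 BRD3308-treated libraries. With that block *Cdk1* fell in P199L-ERG cells (-0.087, adjusted p = 0.0326) and rose in BB cells (0.092, adjusted p = 0.0253). *Cdk1* stood at 290.3 CPM in DMSO-treated P199L-ERG replicate 4, against 229.8 to 254.7 CPM in the other 3 libraries, and without both replicate 4 libraries it had no call in P199L-ERG (-0.022, adjusted p = 0.7) or BB cells (0.093, adjusted p = 0.0561). The processed pseudogenes of *Ccnb1* and *Ccnb2* held 0.897% and 0.504% as many counts as the genes, so reads split between copies could shift them little.

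The mitotic kinases and the chromosomal passenger complex fell in 4 of 5 members in WT-ERG, 3 in P199L-ERG and 2 in BB cells, and none rose. *Plk1* (ENSMUSG00000030867, GRCm38 chromosome 7, 122159439 to 122169873, plus strand) encodes Polo-like kinase 1, which acts from mitotic entry to cytokinesis. In WT-ERG cells *Plk1* had 133, 127, 122 and 117 CPM with BRD3308, against 155, 155, 150.0 and 158 CPM with DMSO. In P199L-ERG cells *Plk1* had 127, 138, 129 and 122 CPM with BRD3308, against 166, 165, 158 and 147 CPM with DMSO. In BB cells *Plk1* had 133, 123, 126 and 106 CPM with BRD3308, against 157, 146, 148 and 135 CPM with DMSO. For *Plk1*, all BRD3308-treated libraries were below all DMSO-treated libraries in each of the 3 constructs. *Plk1* log2 fold changes were -0.31 in WT-ERG cells (SE 0.058, adjusted p = 5.52e-05), -0.30 in P199L-ERG cells (SE 0.057, adjusted p = 7.95e-05) and -0.26 in BB cells (SE 0.058, adjusted p = 0.000493). *Incenp*, the scaffold that anchors Aurora B in the passenger complex, also fell in every construct. In WT-ERG cells *Incenp* had 205, 198.7, 197 and 199.7 CPM with BRD3308, against 242, 235, 226 and 219.8 CPM with DMSO. In P199L-ERG cells *Incenp* had 206, 202, 198 and 205 CPM with BRD3308, against 236, 227, 239 and 257 CPM with DMSO. In BB cells *Incenp* had 222, 209.7, 207 and 204 CPM with BRD3308, against 257, 241, 244 and 238 CPM with DMSO. For *Incenp*, all BRD3308-treated libraries were below all DMSO-treated libraries in each of the 3 constructs. *Incenp* log2 fold changes were -0.20 in WT-ERG cells (SE 0.039, adjusted p = 7.71e-05), -0.24 in P199L-ERG cells (SE 0.038, adjusted p = 9.21e-06) and -0.22 in BB cells (SE 0.038, adjusted p = 3.71e-05). *Aurkb*, the Aurora B kinase itself, fell in WT-ERG (-0.14, adjusted p = 0.00496) and P199L-ERG cells (-0.13, adjusted p = 0.0101) and stood at -0.10 in BB cells (adjusted p = 0.0532). In P199L-ERG cells that of *Aurkb* was lost with no filter on low counts (adjusted p 0.000219 to 0.0713 over 15 alternatives), and in BB cells *Aurkb* fell with the replicate block (-0.10, adjusted p = 0.0311).

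*Aurka*, the centrosomal Aurora A kinase, fell in WT-ERG cells (-0.17, SE 0.057, adjusted p = 0.0171), a call lost without BRD3308-treated WT-ERG replicate 4 (-0.14) (adjusted p 0.0011 to 0.0574 over 15 alternatives). It stood at -0.13 in P199L-ERG and -0.10 in BB cells, and fell in both with the replicate block (-0.13, adjusted p = 0.00891 in P199L-ERG, -0.10, adjusted p = 0.0423 in BB cells). *Birc5*, survivin of the passenger complex, was the member of this group that passed in no construct (-0.020 in WT-ERG, -0.16 in P199L-ERG and 0.10 in BB cells), and it fell in P199L-ERG cells with the block (-0.16, adjusted p = 0.0273). *Birc5* stood at 198 CPM in DMSO-treated P199L-ERG replicate 4, against 140.0 to 144 CPM in the other 3 libraries, and without both replicate 4 libraries it was at -0.032 there (adjusted p = 0.488) and rose in BB cells (0.10, adjusted p = 0.0124).

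Of the 4 spindle checkpoint genes, 3 fell in each construct. *Mad2l1*, which encodes the MAD2 protein that sequesters CDC20, had the smallest p of this group. In WT-ERG cells *Mad2l1* had 122, 131, 132 and 123 CPM with BRD3308, against 149, 147, 152 and 156 CPM with DMSO. In P199L-ERG cells *Mad2l1* had 126, 131, 132 and 132 CPM with BRD3308, against 141, 145, 149.8 and 148 CPM with DMSO. In BB cells *Mad2l1* had 128, 141, 135 and 131 CPM with BRD3308, against 148, 146, 151 and 148 CPM with DMSO. For *Mad2l1*, all BRD3308-treated libraries were below all DMSO-treated libraries in each of the 3 constructs. *Mad2l1* log2 fold changes were -0.25 in WT-ERG cells (SE 0.036, adjusted p = 1.65e-06), -0.16 in P199L-ERG cells (SE 0.036, adjusted p = 0.000387) and -0.15 in BB cells (SE 0.036, adjusted p = 0.00122). *Bub1*, a kinetochore kinase that recruits checkpoint proteins, followed. In WT-ERG cells *Bub1* had 119, 124, 118 and 109.9 CPM with BRD3308, against 137, 133, 134 and 133 CPM with DMSO. In P199L-ERG cells *Bub1* had 128, 128, 126 and 121 CPM with BRD3308, against 145, 138, 134 and 138 CPM with DMSO. In BB cells *Bub1* had 128, 115, 124 and 114 CPM with BRD3308, against 143, 132, 136 and 131 CPM with DMSO. For *Bub1*, all BRD3308-treated libraries were below all DMSO-treated libraries in each of the 3 constructs. *Bub1* log2 fold changes were -0.19 in WT-ERG cells (SE 0.042, adjusted p = 0.000414), -0.14 in P199L-ERG cells (SE 0.041, adjusted p = 0.00536) and -0.17 in BB cells (SE 0.042, adjusted p = 0.00156).

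*Ttk*, the MPS1 kinase at the head of the checkpoint, fell by 0.24 in WT-ERG (SE 0.053), 0.15 in P199L-ERG (SE 0.052) and 0.19 in BB cells (SE 0.053) on the log2 scale, with adjusted p of 0.000511, 0.0176 and 0.00482. The *Ttk* call in P199L-ERG cells was lost without any 1 of BRD3308-treated P199L-ERG replicates 3 and 4 (-0.14 to -0.13), or with no filter on low counts (adjusted p 0.00928 to 0.0938 over 15 alternatives). *Bub1b*, which encodes BUBR1 of the mitotic checkpoint complex, did not pass in any construct, at -0.11 in WT-ERG (adjusted p = 0.107), -0.0058 in P199L-ERG (adjusted p = 0.944) and -0.043 in BB cells (adjusted p = 0.56).

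Genes of the anaphase switch held some of the largest falls and the largest rise. *Cdc20* (ENSMUSG00000006398, GRCm38 chromosome 4, 118432901 to 118437352, minus strand) encodes the activator of the anaphase-promoting complex, the target of the checkpoint. In WT-ERG cells *Cdc20* had 108, 105, 108 and 103 CPM with BRD3308, against 146, 143, 156 and 154 CPM with DMSO. In P199L-ERG cells *Cdc20* had 109.7, 116, 109 and 107 CPM with BRD3308, against 148, 152, 150.4 and 152 CPM with DMSO. In BB cells *Cdc20* had 106, 101, 103 and 101 CPM with BRD3308, against 135, 136, 128 and 133 CPM with DMSO. For *Cdc20*, all BRD3308-treated libraries were below all DMSO-treated libraries in each of the 3 constructs. *Cdc20* log2 fold changes were -0.49 in WT-ERG cells (SE 0.036, adjusted p = 5.62e-12), -0.45 in P199L-ERG cells (SE 0.036, adjusted p = 4.79e-11) and -0.37 in BB cells (SE 0.036, adjusted p = 2.32e-09). The treated levels were 0.71, 0.734 and 0.773 times those with DMSO in WT-ERG, P199L-ERG and BB cells. *Ube2c*, the ubiquitin-conjugating enzyme that works with the same complex, fell with it. In WT-ERG cells *Ube2c* had 156, 152, 165 and 154 CPM with BRD3308, against 179, 177, 181 and 211 CPM with DMSO. In P199L-ERG cells *Ube2c* had 152, 171, 158 and 155 CPM with BRD3308, against 174, 193, 194 and 219.6 CPM with DMSO. In BB cells *Ube2c* had 149.8, 148, 159 and 161 CPM with BRD3308, against 173, 177, 185 and 182 CPM with DMSO. For *Ube2c*, all BRD3308-treated libraries were below all DMSO-treated libraries in each of the 3 constructs. *Ube2c* log2 fold changes were -0.25 in WT-ERG cells (SE 0.057, adjusted p = 0.000634), -0.29 in P199L-ERG cells (SE 0.057, adjusted p = 0.000126) and -0.21 in BB cells (SE 0.058, adjusted p = 0.00328).

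*Pttg1* (ENSMUSG00000020415, GRCm38 chromosome 11, 43420250 to 43426251, minus strand), securin, which holds separase inactive and is itself a target of that complex, moved the other way. In WT-ERG cells *Pttg1* had 28.0, 30.9, 31.2 and 31.0 CPM with BRD3308, against 20.7, 22.1, 25.8 and 28.7 CPM with DMSO. In P199L-ERG cells *Pttg1* had 31.0, 29.5, 32.1 and 32.5 CPM with BRD3308, against 22.5, 23.8, 26.4 and 37.8 CPM with DMSO. In BB cells *Pttg1* had 27.8, 34.7, 37.8 and 35.1 CPM with BRD3308, against 24.1, 24.8, 24.2 and 24.7 CPM with DMSO. For *Pttg1*, the BRD3308-treated libraries lay above the DMSO-treated libraries in BB cells and overlapped them in WT-ERG and P199L-ERG cells. *Pttg1* log2 fold changes were 0.32 in WT-ERG cells (SE 0.12, adjusted p = 0.0236), 0.18 in P199L-ERG cells (SE 0.11, adjusted p = 0.186) and 0.47 in BB cells (SE 0.11, adjusted p = 0.00142). *Pttg1* rose in WT-ERG and BB cells, and its call in WT-ERG cells was lost without any 1 of BRD3308-treated WT-ERG replicates 2 and 3 and DMSO-treated WT-ERG replicates 1 and 2 (0.25 to 0.31) (adjusted p 7.17e-05 to 0.0941 over 15 alternatives). In P199L-ERG cells replicate 4 with DMSO was the highest of the 8 libraries, and without both replicate 4 libraries the change was 0.37, adjusted p = 0.000446, while with the replicate block it was 0.19, adjusted p = 0.0498. *Espl1*, separase, which cuts cohesin, stood at -0.094, 0.018 and -0.041 in WT-ERG, P199L-ERG and BB cells with no call.

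**Figure D3:**
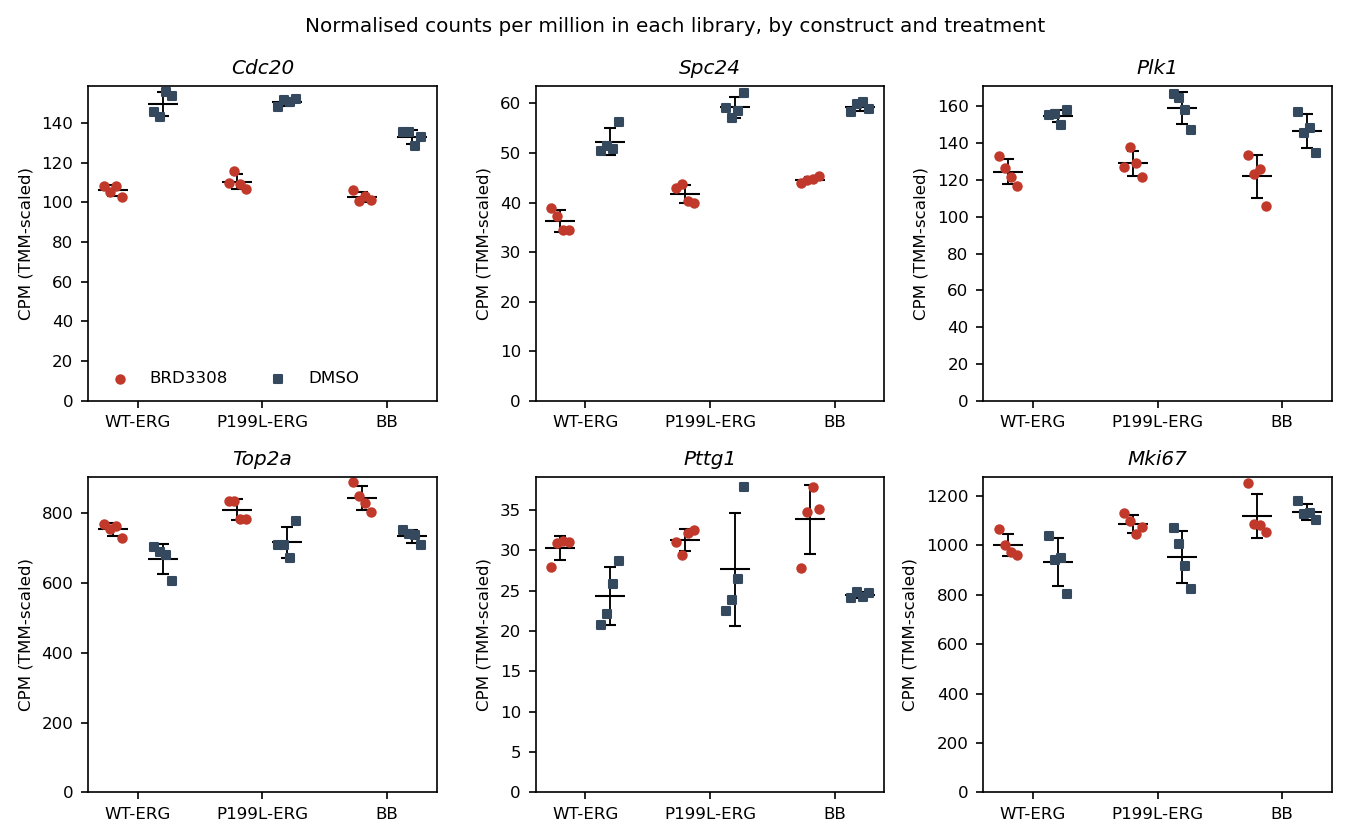
CPM of *Cdc20*, *Spc24*, *Plk1*, *Top2a*, *Pttg1* and *Mki67* in each of the 24 libraries, with BRD3308 left of DMSO in each construct and the mean ± SD of each group (n = 4). The *Cdc20* points are 101 to 116 CPM with BRD3308 and 128 to 156 CPM with DMSO, with no overlap in any construct, and the highest DMSO point of *Pttg1*, at 37.8 CPM, is replicate 4 of P199L-ERG cells.

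At the kinetochore and centromere, where 1 of 7 genes fell in WT-ERG, 2 in P199L-ERG and 3 in BB cells, and 1 rose in BB cells, the subunits of a single complex went different ways. The NDC80 complex, which binds microtubule ends, is built of *Ndc80*, *Nuf2*, *Spc24* and *Spc25*. *Spc24* (ENSMUSG00000074476, GRCm38 chromosome 9, 21755442 to 21760303, minus strand) had the largest fall of the 40 genes in every construct. In WT-ERG cells *Spc24* had 38.9, 37.3, 34.5 and 34.5 CPM with BRD3308, against 50.3, 51.5, 50.9 and 56.3 CPM with DMSO. In P199L-ERG cells *Spc24* had 42.9, 43.7, 40.3 and 39.97 CPM with BRD3308, against 59.1, 57.2, 58.4 and 62.1 CPM with DMSO. In BB cells *Spc24* had 44.0, 44.6, 44.7 and 45.3 CPM with BRD3308, against 58.4, 59.8, 60.2 and 58.8 CPM with DMSO. For *Spc24*, all BRD3308-treated libraries were below all DMSO-treated libraries in each of the 3 constructs. *Spc24* log2 fold changes were -0.52 in WT-ERG cells (SE 0.048, adjusted p = 5.75e-10), -0.50 in P199L-ERG cells (SE 0.046, adjusted p = 6.99e-10) and -0.41 in BB cells (SE 0.047, adjusted p = 3.41e-08). *Nuf2* fell in P199L-ERG (-0.21, adjusted p = 0.00235) and BB cells (-0.14, adjusted p = 0.0361) and stood at -0.13 in WT-ERG cells (adjusted p = 0.0578). In DMSO-treated P199L-ERG cells *Nuf2* was at 167 CPM in replicate 4, against 127 to 139 CPM in the other 3 libraries. Without that library its change in P199L-ERG cells was -0.13 (adjusted p = 0.00663), and without both replicate 4 libraries it was -0.12 (adjusted p = 0.00606) there and -0.10 in WT-ERG cells, where it then passed (adjusted p = 0.0261). The call of *Nuf2* in BB cells was lost without any 1 of BRD3308-treated BB replicates 1 and 2 and DMSO-treated BB replicates 2 and 3 (-0.14 to -0.12) (adjusted p 0.00093 to 0.108 over 15 alternatives).

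*Ndc80* rose in BB cells alone among the calls. In WT-ERG cells *Ndc80* had 91.9, 92.7, 98.7 and 92.4 CPM with BRD3308, against 93.6, 91.7, 94.2 and 97.7 CPM with DMSO. In P199L-ERG cells *Ndc80* had 98.5, 104, 95.1 and 95.2 CPM with BRD3308, against 96.3, 99.0, 100.4 and 107 CPM with DMSO. In BB cells *Ndc80* had 113, 111, 108 and 107 CPM with BRD3308, against 103, 105, 106 and 88.9 CPM with DMSO. For *Ndc80*, the BRD3308-treated libraries lay above the DMSO-treated libraries in BB cells and overlapped them in WT-ERG and P199L-ERG cells. *Ndc80* log2 fold changes were -0.0050 in WT-ERG cells (SE 0.048, adjusted p = 0.945), -0.037 in P199L-ERG cells (SE 0.047, adjusted p = 0.552) and 0.12 in BB cells (SE 0.047, adjusted p = 0.0363). Replicate 4 of DMSO-treated BB cells was the lowest of the 24 libraries for *Ndc80*, whose call was lost without any 1 of BRD3308-treated BB replicates 1, 2 and 3 and DMSO-treated BB replicate 4 (0.067 to 0.12), or with library totals as the scale and no filter on low counts (adjusted p 0.0191 to 0.22 over 15 alternatives). *Spc25* passed in no construct (-0.036 in WT-ERG, -0.13 in P199L-ERG and 0.021 in BB cells).

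*Cenpf*, a large protein of the outer kinetochore, fell in BB cells. In WT-ERG cells *Cenpf* had 79.5, 78.7, 73.4 and 69.9 CPM with BRD3308, against 89.9, 81.5, 85.5 and 78.5 CPM with DMSO. In P199L-ERG cells *Cenpf* had 84.9, 84.1, 79.1 and 81.6 CPM with BRD3308, against 87.5, 85.1, 68.8 and 85.6 CPM with DMSO. In BB cells *Cenpf* had 76.0, 75.5, 71.0 and 65.2 CPM with BRD3308, against 97.0, 89.8, 89.4 and 81.3 CPM with DMSO. For *Cenpf*, the BRD3308-treated libraries lay below the DMSO-treated libraries in BB cells and overlapped them in WT-ERG and P199L-ERG cells. *Cenpf* log2 fold changes were -0.15 in WT-ERG cells (SE 0.066, adjusted p = 0.0559), 0.011 in P199L-ERG cells (SE 0.065, adjusted p = 0.908) and -0.31 in BB cells (SE 0.066, adjusted p = 0.000279). *Cenpe*, a kinetochore motor that carries chromosomes to the spindle equator, stood at -0.087, -0.051 and -0.070, and *Cenpa*, the histone H3 variant of centromeres, at 0.065, 0.033 and 0.047 in WT-ERG, P199L-ERG and BB cells, with no call for either.

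Of the 8 motors and spindle proteins, 4 fell in WT-ERG cells, 3 in P199L-ERG cells, and 2 fell and 1 rose in BB cells. *Kif11*, the Eg5 motor that pushes spindle poles apart, fell in every construct. In WT-ERG cells *Kif11* had 246, 234, 242 and 213 CPM with BRD3308, against 269, 269, 269 and 259 CPM with DMSO. In P199L-ERG cells *Kif11* had 246, 253, 242 and 245 CPM with BRD3308, against 274, 278, 268 and 258 CPM with DMSO. In BB cells *Kif11* had 258, 241, 248 and 234 CPM with BRD3308, against 279, 277, 281 and 274 CPM with DMSO. For *Kif11*, all BRD3308-treated libraries were below all DMSO-treated libraries in each of the 3 constructs. *Kif11* log2 fold changes were -0.19 in WT-ERG cells (SE 0.039, adjusted p = 0.000192), -0.13 in P199L-ERG cells (SE 0.038, adjusted p = 0.00645) and -0.18 in BB cells (SE 0.038, adjusted p = 0.000366). In P199L-ERG cells it was lost with no filter on low counts (adjusted p 0.000775 to 0.0501 over 15 alternatives). *Kif4*, a chromokinesin of chromosome arms and the central spindle, also fell in every construct, although its libraries overlapped in P199L-ERG cells. In WT-ERG cells *Kif4* had 67.9, 69.9, 69.7 and 67.1 CPM with BRD3308, against 72.4, 74.0, 75.4 and 79.1 CPM with DMSO. In P199L-ERG cells *Kif4* had 68.8, 70.6, 66.9 and 74.8 CPM with BRD3308, against 74.3, 81.4, 78.8 and 83.9 CPM with DMSO. In BB cells *Kif4* had 72.5, 69.4, 74.8 and 74.2 CPM with BRD3308, against 79.8, 78.4, 86.1 and 75.5 CPM with DMSO. For *Kif4*, the BRD3308-treated libraries lay below the DMSO-treated libraries in WT-ERG and BB cells and overlapped them in P199L-ERG cells. *Kif4* log2 fold changes were -0.13 in WT-ERG cells (SE 0.047, adjusted p = 0.0221), -0.18 in P199L-ERG cells (SE 0.046, adjusted p = 0.00197) and -0.14 in BB cells (SE 0.046, adjusted p = 0.017). Its call in WT-ERG cells was lost without DMSO-treated WT-ERG replicate 4 (-0.11), or with no filter on low counts (adjusted p 0.0125 to 0.104 over 15 alternatives). In BB cells that of *Kif4* was lost without DMSO-treated BB replicate 3 (-0.10), or with no filter on low counts (adjusted p 0.00633 to 0.0946 over 15 alternatives).

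*Nusap1*, a microtubule protein of the spindle near chromosomes, was the gene of this group that rose, in BB cells. In WT-ERG cells *Nusap1* had 140.0, 141, 149 and 135 CPM with BRD3308, against 133, 131, 135 and 146 CPM with DMSO. In P199L-ERG cells *Nusap1* had 152, 156, 152 and 151 CPM with BRD3308, against 139.9, 150.4, 144 and 158 CPM with DMSO. In BB cells *Nusap1* had 166, 156, 166 and 156 CPM with BRD3308, against 149, 149, 153 and 144 CPM with DMSO. For *Nusap1*, the BRD3308-treated libraries lay above the DMSO-treated libraries in BB cells and overlapped them in WT-ERG and P199L-ERG cells. *Nusap1* log2 fold changes were 0.057 in WT-ERG cells (SE 0.041, adjusted p = 0.27), 0.047 in P199L-ERG cells (SE 0.041, adjusted p = 0.358) and 0.11 in BB cells (SE 0.041, adjusted p = 0.0266). The rise was lost without any 1 of BRD3308-treated BB replicates 1 and 3 and DMSO-treated BB replicates 1 and 4 (0.090 to 0.11), or with no filter on low counts (adjusted p 0.005 to 0.105 over 15 alternatives).

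*Kif20a*, a motor of the central spindle, fell in WT-ERG cells (-0.15, SE 0.050, adjusted p = 0.0156), a call lost without DMSO-treated WT-ERG replicate 1 (-0.13) (adjusted p 0.000199 to 0.051 over 15 alternatives), and without both replicate 4 libraries it also fell in P199L-ERG cells (-0.099, adjusted p = 0.02). *Kif2c*, a microtubule depolymerase at centromeres, fell in WT-ERG cells (-0.19, SE 0.063, adjusted p = 0.014), a call lost without BRD3308-treated WT-ERG replicate 4 (-0.14) (adjusted p 0.00032 to 0.0644 over 15 alternatives), and it fell in P199L-ERG (-0.15, adjusted p = 0.00346) and BB cells (-0.13, adjusted p = 0.0114) with the replicate block. *Tpx2*, the activator of Aurora A on the spindle, fell in P199L-ERG cells (-0.089, SE 0.036, adjusted p = 0.0458), a call lost without any 1 of BRD3308-treated P199L-ERG replicates 1, 3 and 4 and DMSO-treated P199L-ERG replicates 1 and 3 (-0.10 to -0.076), or with RLE scaling, library totals as the scale, no filter on low counts, DESeq2 and a fit of the groups compared alone (adjusted p 0.0113 to 0.314 over 15 alternatives). *Kif23*, a motor of the centralspindlin complex, and *Prc1*, which bundles the microtubules of the central spindle, passed in no construct, at -0.10, -0.057 and -0.10 for *Kif23* and -0.11, -0.15 and -0.10 for *Prc1* in WT-ERG, P199L-ERG and BB cells. With the replicate block *Kif23* fell in BB cells (-0.095, adjusted p = 0.0438) and *Prc1* in P199L-ERG cells (-0.15, adjusted p = 0.00937). Without both replicate 4 libraries *Prc1* stood at -0.11 in P199L-ERG cells (adjusted p = 0.144), and *Kif23* fell in WT-ERG cells (-0.11, adjusted p = 0.0382).

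Of the 3 cytokinesis genes, 1 rose and none fell in the fit used for the calls. *Racgap1*, the GTPase-activating subunit of centralspindlin that pairs with *Kif23*, rose in P199L-ERG and BB cells. In WT-ERG cells *Racgap1* had 153, 159, 157 and 158 CPM with BRD3308, against 156, 153, 159 and 162 CPM with DMSO. In P199L-ERG cells *Racgap1* had 158, 174, 172 and 172 CPM with BRD3308, against 159, 163, 158 and 157 CPM with DMSO. In BB cells *Racgap1* had 178, 187, 188 and 184 CPM with BRD3308, against 167, 173, 179 and 167 CPM with DMSO. For *Racgap1*, the BRD3308- and DMSO-treated libraries overlapped in each of the 3 constructs. *Racgap1* log2 fold changes were -0.0063 in WT-ERG cells (SE 0.035, adjusted p = 0.903), 0.087 in P199L-ERG cells (SE 0.035, adjusted p = 0.0421) and 0.10 in BB cells (SE 0.035, adjusted p = 0.0165). These were small changes with overlapping libraries, and the call in P199L-ERG cells was lost without any 1 of BRD3308-treated P199L-ERG replicates 2, 3 and 4 and DMSO-treated P199L-ERG replicates 1, 3 and 4 (0.070 to 0.087), or with no filter on low counts, a fit of the groups compared alone and both replicate 4 libraries of DMSO-treated ERG cells left out together (adjusted p 0.00777 to 0.216 over 15 alternatives). In BB cells it was lost without any 1 of BRD3308-treated BB replicates 2 and 3 and DMSO-treated BB replicates 1 and 4 (0.087 to 0.091), or with no filter on low counts (adjusted p 0.00622 to 0.139 over 15 alternatives). *Ect2*, the exchange factor that switches on RhoA at the cell equator, passed in no construct. In WT-ERG cells *Ect2* had 94.7, 94.0, 92.1 and 80.7 CPM with BRD3308, against 102, 99.0, 99.2 and 95.9 CPM with DMSO. In P199L-ERG cells *Ect2* had 90.5, 96.2, 84.8 and 87.0 CPM with BRD3308, against 103, 102, 95.5 and 88.5 CPM with DMSO. In BB cells *Ect2* had 91.2, 87.4, 87.9 and 78.3 CPM with BRD3308, against 99.0, 95.03, 94.3 and 88.1 CPM with DMSO. For *Ect2*, the BRD3308-treated libraries lay below the DMSO-treated libraries in WT-ERG cells and overlapped them in P199L-ERG and BB cells. *Ect2* log2 fold changes were -0.13 in WT-ERG cells (SE 0.056, adjusted p = 0.058), -0.12 in P199L-ERG cells (SE 0.056, adjusted p = 0.0782) and -0.13 in BB cells (SE 0.057, adjusted p = 0.0694). With the replicate block *Ect2* fell in P199L-ERG (-0.12, adjusted p = 0.0077) and BB cells (-0.13, adjusted p = 0.00582), and so did *Anln*, the actin-binding anillin of the contractile ring (-0.15, adjusted p = 0.00178 and -0.18, adjusted p = 0.000446), which stood at -0.14, -0.15 and -0.17 in WT-ERG, P199L-ERG and BB cells without the block. Without both replicate 4 libraries *Ect2* fell in WT-ERG (-0.14, adjusted p = 0.0247), P199L-ERG (-0.16, adjusted p = 0.0115) and BB cells (-0.13, adjusted p = 0.0353). It also fell in WT-ERG and BB cells with a fit of the groups compared alone. With no filter on low counts *Anln* fell in WT-ERG, P199L-ERG and BB cells (adjusted p = 0.0347, 0.0382 and 0.00396).

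The chromosome genes rose where they passed. *Top2a* (ENSMUSG00000020914, GRCm38 chromosome 11, 98992943 to 99024189, minus strand), the topoisomerase that untangles sister chromatids, was the gene that rose in all 3 constructs. In WT-ERG cells *Top2a* had 769, 752, 762 and 727 CPM with BRD3308, against 701, 687, 678 and 605 CPM with DMSO. In P199L-ERG cells *Top2a* had 834, 835, 783 and 783 CPM with BRD3308, against 707, 707, 672 and 775 CPM with DMSO. In BB cells *Top2a* had 887, 849, 829.5 and 803 CPM with BRD3308, against 749, 739, 737 and 707 CPM with DMSO. For *Top2a*, all BRD3308-treated libraries were above all DMSO-treated libraries in each of the 3 constructs. *Top2a* log2 fold changes were 0.17 in WT-ERG cells (SE 0.044, adjusted p = 0.00207), 0.18 in P199L-ERG cells (SE 0.044, adjusted p = 0.0016) and 0.20 in BB cells (SE 0.044, adjusted p = 0.000516). *Mki67* (ENSMUSG00000031004, GRCm38 chromosome 7, 135689784 to 135716361, minus strand) rose in P199L-ERG cells. In WT-ERG cells *Mki67* had 1066, 1000.4, 975 and 963 CPM with BRD3308, against 1038, 943, 949.6 and 803 CPM with DMSO. In P199L-ERG cells *Mki67* had 1130.1, 1098, 1046 and 1073 CPM with BRD3308, against 1069, 1005, 916 and 825 CPM with DMSO. In BB cells *Mki67* had 1253, 1085, 1083 and 1055 CPM with BRD3308, against 1179, 1129, 1133 and 1103 CPM with DMSO. For *Mki67*, the BRD3308- and DMSO-treated libraries overlapped in each of the 3 constructs. *Mki67* log2 fold changes were 0.10 in WT-ERG cells (SE 0.067, adjusted p = 0.223), 0.19 in P199L-ERG cells (SE 0.067, adjusted p = 0.021) and -0.022 in BB cells (SE 0.067, adjusted p = 0.818). The *Mki67* call was lost without any 1 of BRD3308-treated P199L-ERG replicates 1 and 2 and DMSO-treated P199L-ERG replicates 3 and 4 (0.12 to 0.18), or with a fit of the groups compared alone (adjusted p 4.5e-06 to 0.132 over 15 alternatives). Without both replicate 4 libraries *Mki67* rose by 0.12 in P199L-ERG cells (adjusted p = 0.0431).

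The response to BRD3308 did not pass a test of difference between constructs for any of the 40 genes, in edgeR or in DESeq2. For WT-ERG minus BB cells, 1.73% of all genes tested were called, for P199L-ERG minus BB cells 1.05%, and for P199L-ERG minus WT-ERG cells 0.0463%. At an unadjusted p under 0.05 there were 2, 6 and 1 of the 40 genes, where 10.4%, 12.8% and 5.89% of all genes tested were under it, and the SE of such a difference ran from 0.049 to 0.16 on the log2 scale. The smallest adjusted p was that of *Cenpf*, whose response was 0.33 higher on the log2 scale in P199L-ERG than in BB cells (SE 0.093, adjusted p = 0.0996). With the replicate block 3 genes passed in that comparison, *Cenpf* (0.33, adjusted p = 0.00561), *Mki67* (0.22, adjusted p = 0.0243) and *Cdk1* (-0.18, adjusted p = 0.0351), where 3.6% of all genes tested passed. Without both replicate 4 libraries *Cenpf* passed (0.35, adjusted p = 0.047), where 1.55% of all genes did, and *Mki67* (0.15, adjusted p = 0.392) and *Cdk1* (-0.12, adjusted p = 0.459) did not. With no filter on low counts *Cenpf* (0.34, adjusted p = 0.00214), *Mki67* (0.23, adjusted p = 0.00985) and *Birc5* (-0.25, adjusted p = 0.0384) passed in the same comparison. Of the 28451 genes then tested, 159 were higher and 141 lower. Apart from the genes named here under those settings, a call in one construct and not in another is not a shown difference between them.

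Fewer of the 40 genes were called between constructs than with the drug. In DMSO, WT-ERG cells had 7 of the genes lower and 1 higher against BB cells, where 14.1% of all genes tested were called lower and 15.6% higher. Lower were *Spc24* at -0.18 (SE 0.046, adjusted p = 0.00258), *Mki67* at -0.28 (SE 0.067, adjusted p = 0.00159), *Foxm1* at -0.21 (SE 0.051, adjusted p = 0.00237) and *Racgap1* at -0.12 (SE 0.035, adjusted p = 0.00809). *Ccna2* (-0.093), *Top2a* (-0.13) and *Nusap1* (-0.13) were also lower, by amounts that single libraries decided. *Ccna2* was lost without any 1 of DMSO-treated WT-ERG replicates 1, 2 and 3 and DMSO-treated BB replicates 1, 2 and 3 (-0.095 to -0.077), or with library totals as the scale and no filter on low counts (adjusted p 0.0128 to 0.149 over 15 alternatives). *Top2a* was lost without any 1 of DMSO-treated WT-ERG replicate 4 and DMSO-treated BB replicate 1 (-0.12 to -0.090) (adjusted p 0.00493 to 0.116 over 15 alternatives). *Nusap1* was lost without any 1 of DMSO-treated WT-ERG replicate 2 and DMSO-treated BB replicate 3 (-0.12 to -0.11) (adjusted p 0.000447 to 0.0603 over 15 alternatives). *Cdc20*, which fell with the drug in both, was the 1 gene with a higher level in WT-ERG cells, at 0.17 (SE 0.036, adjusted p = 0.000535). Its DMSO-treated libraries, given above, were 143 to 156 CPM in WT-ERG and 128 to 136 CPM in BB cells, with no overlap. The WT-ERG and BB libraries did not overlap for 8 of the 40 genes, against 30.5% of all genes tested. Without both replicate 4 libraries 10 of the 40 were lower and 1 higher, where 16% of all genes were lower and 16.7% higher, as *Ccnb2* (-0.10, adjusted p = 0.0391), *Nuf2* (-0.13, adjusted p = 0.0061) and *Spc25* (-0.18, adjusted p = 0.00406) joined.

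In P199L-ERG against BB cells in DMSO, 3 genes were lower and 2 higher, where 12.9% of all genes were called lower and 15.3% higher. Lower were *Mki67* at -0.25 (SE 0.067, adjusted p = 0.00525), *Foxm1* at -0.20 (SE 0.051, adjusted p = 0.00331) and *Racgap1* at -0.11 (SE 0.035, adjusted p = 0.0214). Higher were *Cdc20* at 0.18 (SE 0.036, adjusted p = 0.000374) and *Cdc25c* at 0.30 (SE 0.078, adjusted p = 0.00482). The call of *Racgap1* was lost without any 1 of DMSO-treated BB replicates 2 and 3 (-0.10 to -0.088), or with no filter on low counts and a fit of the groups compared alone (adjusted p 0.00781 to 0.0916 over 15 alternatives), and that of *Cdc25c* with a fit of the groups compared alone (adjusted p 0.00123 to 0.0571 over 15 alternatives). Without DMSO-treated P199L-ERG replicate 4, at 35.3 CPM against 25.1 to 28.0 CPM in the other 3 libraries, *Cdc25c* was higher by 0.18 (adjusted p = 0.0318). Without both replicate 4 libraries it was also at 0.18 (adjusted p = 0.0307), and *Plk1* was higher too (0.16, adjusted p = 0.0373). Both comparisons use the same BB libraries, so their shared genes are not independent. The P199L-ERG and BB libraries did not overlap for 5 genes, against 24.5% of all genes tested. Between P199L-ERG and WT-ERG cells in DMSO, the call was *Spc24*, higher at 0.18 (SE 0.046, adjusted p = 0.0168), where 2.23% of all genes were called higher and 2.45% lower. It was lost without any 1 of DMSO-treated WT-ERG replicates 1, 2 and 3 (0.16 to 0.17), or with no filter on low counts and a fit of the groups compared alone (adjusted p 0.00426 to 0.163 over 15 alternatives). It was also the 1 gene whose libraries did not overlap, against 7.63% of all genes tested. The fold change was below 0 for 7 of the 40 genes, with a median of 0.044.

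Under BRD3308, WT-ERG cells had 9 of the 40 genes lower and none higher against BB cells, where 10.7% of all genes tested were called lower and 10.4% higher. *Spc24* was lower at -0.30 (SE 0.048, adjusted p = 2.87e-05), *Racgap1* at -0.23 (SE 0.035, adjusted p = 9.35e-06), *Top2a* at -0.16 (SE 0.044, adjusted p = 0.0082) and *Ccna2* at -0.17 (SE 0.035, adjusted p = 0.000429). *Nusap1* (-0.19), *Foxm1* (-0.23), *Ndc80* (-0.22), *Spc25* (-0.22) and *Ccnb2* (-0.15) were lower as well. *Ccnb2* had 119, 125, 127 and 121 CPM in BRD3308-treated WT-ERG cells, against 129.7, 142, 141 and 133 CPM in BRD3308-treated BB cells, a call lost without any 1 of BRD3308-treated WT-ERG replicates 1 and 2 and BRD3308-treated BB replicates 2 and 3 (-0.16 to -0.14) (adjusted p 0.00175 to 0.0688 over 15 alternatives). *Spc25* had 59.3, 59.9, 66.1 and 59.9 CPM in BRD3308-treated WT-ERG cells, against 70.0, 68.7, 72.2 and 74.3 CPM in BRD3308-treated BB cells, a call lost without any 1 of BRD3308-treated WT-ERG replicates 1 and 2 and BRD3308-treated BB replicate 4 (-0.21) (adjusted p 0.000489 to 0.0758 over 15 alternatives). The replicate block, which pairs libraries here, added *Cdk1* (-0.14, adjusted p = 0.00267), *Mki67* (-0.16, adjusted p = 0.00244) and *Cdc25b* (-0.13, adjusted p = 0.0461), all lower. The fold change was below 0 for 33 of the 40 genes, with a median of -0.076 against -0.00042 for all genes tested, and the libraries did not overlap for 13, all lower in WT-ERG cells, where 13.3% of all genes were lower and 12.6% higher without overlap.

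Against BB cells under BRD3308, *Ndc80* (-0.16, SE 0.047, adjusted p = 0.0166) and *Racgap1* (-0.12, SE 0.035, adjusted p = 0.0117) were lower and *Cenpf* was higher (0.20, SE 0.066, adjusted p = 0.0388), where 8.81% of all genes were called lower and 8.12% higher. The *Cenpf* call was lost without any 1 of BRD3308-treated P199L-ERG replicates 1, 2, 3 and 4 and BRD3308-treated BB replicates 3 and 4 (0.15 to 0.21) (adjusted p 0.00327 to 0.184 over 15 alternatives). That of *Racgap1* was lost without BRD3308-treated P199L-ERG replicate 1 (-0.10), or with no filter on low counts (adjusted p 0.00305 to 0.121 over 15 alternatives). *Cdc20* was higher with the replicate block (0.10, adjusted p = 0.0384), and the libraries of 6 genes did not overlap, against 23% of all genes tested. Against WT-ERG cells under BRD3308, *Spc24* was higher (0.20, SE 0.048, adjusted p = 0.014), where 1.31% of all genes were called higher and 2.09% lower. The call of *Spc24* was lost with no filter on low counts (adjusted p 0.00343 to 0.0832 over 15 alternatives). With the replicate block 5 genes were higher in P199L-ERG cells, as *Ccna2* (0.12, adjusted p = 0.0303), *Racgap1* (0.11, adjusted p = 0.0373), *Cdc25b* (0.17, adjusted p = 0.0359) and *Foxm1* (0.15, adjusted p = 0.0258) joined it, where 2.28% of all genes were then higher. The fold change was below 0 for 1 of the 40 genes, with a median of 0.064 against 0.0023 for all genes tested, and the libraries did not overlap for 7 genes, all higher in P199L-ERG cells, where 4.93% of all genes were higher and 5.6% lower without overlap. In all, 13 of the 40 genes were called in at least 1 of the 6 construct comparisons, and 27 in none, a tally that was not made for all genes tested.

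**Figure D4:**
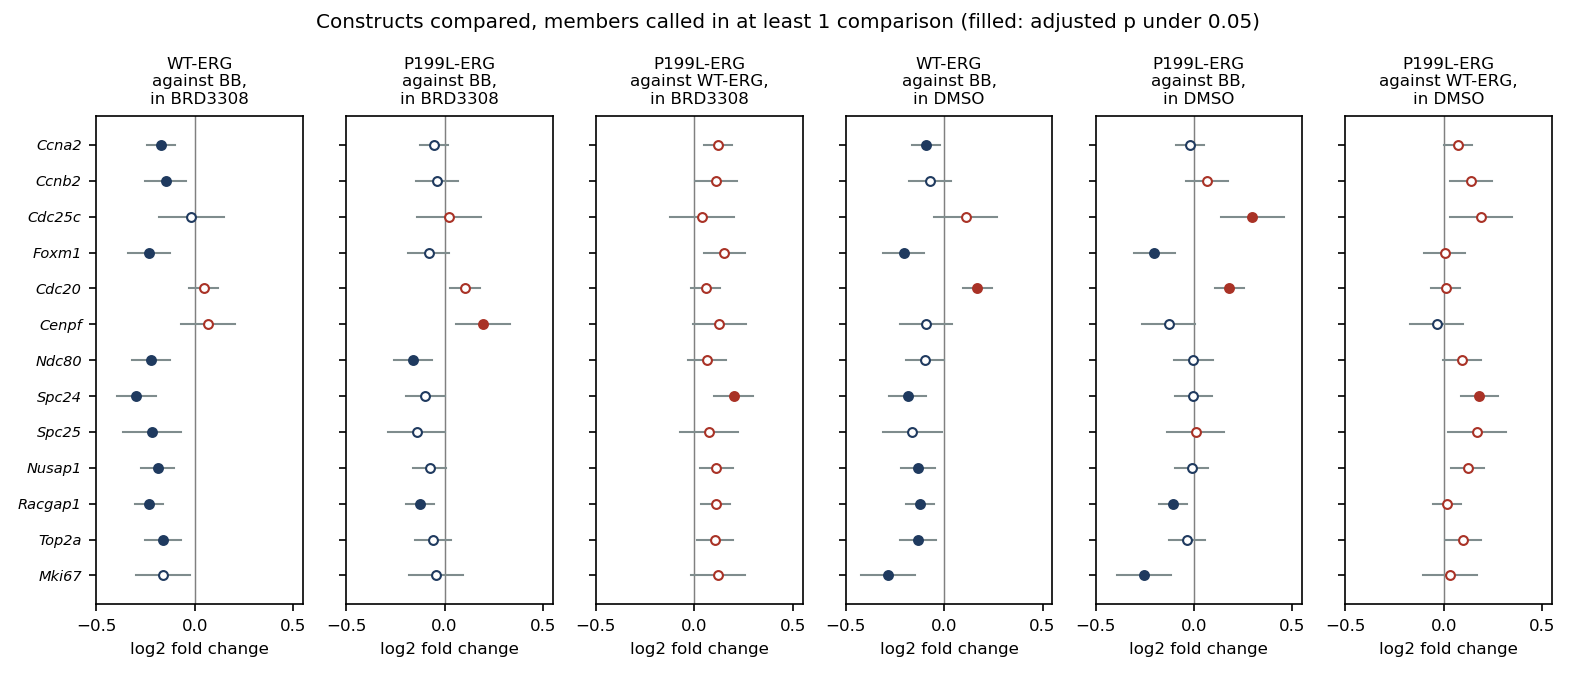
Log2 fold change of the 13 genes called in at least 1 construct comparison, for WT-ERG against BB, P199L-ERG against BB and P199L-ERG against WT-ERG cells, first with BRD3308 and then with DMSO. Bars are 95% confidence intervals and filled points have an adjusted p under 0.05, as for *Spc24*, which is filled below 0 in WT-ERG against BB cells (-0.30 with BRD3308, -0.18 with DMSO) and above 0 in P199L-ERG against WT-ERG cells (0.20 with BRD3308, 0.18 with DMSO).

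Other genes of mitosis, 91 in a list that holds none of the 40, also fell more often than they rose with BRD3308: 46 fell and 2 rose in WT-ERG cells, 51 fell and 3 rose in P199L-ERG cells, and 41 fell and 4 rose in BB cells, with medians of -0.13, -0.14 and -0.13. In the same order, 23.2%, 24.1% and 22% of all genes tested fell and 24.7%, 24.4% and 24% rose. Among the genes at or above the level of the lowest of the 40, 35.2%, 36% and 33.4% fell. *Nek2*, a centrosomal kinase, changed by -0.70, -0.67 and -0.59 in WT-ERG, P199L-ERG and BB cells (adjusted p = 4.06e-12, 7.58e-12 and 1.55e-10). *Smc4*, a core subunit of condensin, changed by -0.44, -0.40 and -0.38 in WT-ERG, P199L-ERG and BB cells (adjusted p = 4.35e-10, 2.26e-09 and 7.17e-09), and *Cenpn*, a centromere protein, by -0.47, -0.48 and -0.41 in WT-ERG, P199L-ERG and BB cells (adjusted p = 4.46e-09, 1.8e-09 and 3.42e-08). *Psrc1*, a microtubule-associated protein, rose in every construct, by 1.27, 1.02 and 1.58 in WT-ERG, P199L-ERG and BB cells (adjusted p = 5.62e-11, 9.23e-08 and 1.01e-08). The others that rose were *Anapc11*, the RING subunit of the anaphase-promoting complex, in WT-ERG (0.21) and BB cells (0.27), *Zwilch*, a kinetochore protein, in P199L-ERG cells (0.12), *Zwint*, another, in BB cells (0.11), and *Ckap5*, a microtubule polymerase, in P199L-ERG (0.11) and BB cells (0.10). Between constructs in DMSO, WT-ERG cells had 5 of the 91 higher and 9 lower against BB cells, led by *Psrc1* (2.07, SE 0.16, adjusted p = 2.21e-11), the spindle protein *Spag5* (-0.24, SE 0.036, adjusted p = 5.06e-06) and the condensin subunit *Ncaph* (-0.24, SE 0.037, adjusted p = 1.22e-05). Over all genes tested, 15.6% were higher and 14.1% lower in that comparison.

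DNA replication genes of S phase fell as well: of 40, 21 fell and 2 rose in WT-ERG, 26 fell and 2 rose in P199L-ERG, and 25 fell and 1 rose in BB cells, with medians of -0.17, -0.18 and -0.18. The shares of all genes tested that fell were 23.2%, 24.1% and 22%, and 24.7%, 24.4% and 24% rose. *Pold1*, the catalytic subunit of DNA polymerase delta, changed by -0.37, -0.37 and -0.34 in WT-ERG, P199L-ERG and BB cells (adjusted p = 7.5e-10, 6.42e-10 and 2.91e-09), and *Mcm7*, of the replicative helicase, by -0.37, -0.38 and -0.36 in WT-ERG, P199L-ERG and BB cells (adjusted p = 7.95e-09, 3.21e-09 and 1.29e-08). *Uhrf1*, which maintains DNA methylation at replication forks, changed by -0.35, -0.32 and -0.35 in WT-ERG, P199L-ERG and BB cells (adjusted p = 4.92e-07, 2.04e-06 and 3.82e-07), *Cdc45*, a partner of the helicase, by -0.25, -0.37 and -0.32 in WT-ERG, P199L-ERG and BB cells (adjusted p = 9.15e-06, 2.39e-08 and 2.32e-07), and *Rfc3*, of the clamp loader, by -0.52, -0.38 and -0.33 in WT-ERG, P199L-ERG and BB cells (adjusted p = 2.51e-07, 2.18e-05 and 0.000104). *Pola1*, the catalytic subunit of DNA polymerase alpha, rose by 0.13, 0.12 and 0.16 in WT-ERG, P199L-ERG and BB cells, and *Prim1*, the catalytic primase subunit, by 0.15 and 0.16 in WT-ERG and P199L-ERG cells. WT-ERG cells had 18 of the 40 S phase genes lower against BB cells in DMSO (*Mcm5* -0.24, *Lig1* -0.27, *Pold1* -0.18 and *Pcna* -0.21) and 19 under BRD3308, and none higher. Over all genes tested, 14.1% were lower in DMSO and 10.7% under BRD3308. P199L-ERG cells had 3 of them in DMSO and 4 under BRD3308 lower against BB cells, and 9 in DMSO and 4 under BRD3308 higher against WT-ERG cells, among them *Cdc6* (0.22), *Pcna* (0.16) and *Tk1* (0.19) in DMSO. The shares of all genes tested were 12.9% and 8.81% lower against BB cells, and 2.23% and 1.31% higher against WT-ERG cells.

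Of 14 genes of the DREAM and B-MYB complexes and the FOXM1 partners, which control transcription of mitotic genes, 5 fell in WT-ERG, 5 in P199L-ERG, and 3 fell and 1 rose in BB cells. *Mybl2*, which encodes B-MYB, changed by -0.42, -0.26 and -0.36 in WT-ERG, P199L-ERG and BB cells (adjusted p = 1.39e-09, 4.73e-06 and 2.86e-08). *Lin37* fell in WT-ERG (-0.29) and P199L-ERG cells (-0.45), *Lin9* in all 3 (-0.26, -0.23 and -0.24), both of the MuvB core, and *Rbbp4*, a histone-binding subunit of that core, rose in BB cells (0.092). Against BB cells, *Mybl2* was higher in WT-ERG cells with DMSO (0.29, SE 0.040, adjusted p = 1.37e-06) and with BRD3308 (0.24, SE 0.041, adjusted p = 6.24e-05), and in P199L-ERG cells with DMSO (0.26, SE 0.040, adjusted p = 1.07e-05) and with BRD3308 (0.37, SE 0.041, adjusted p = 1e-07).

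**Figure D5:**
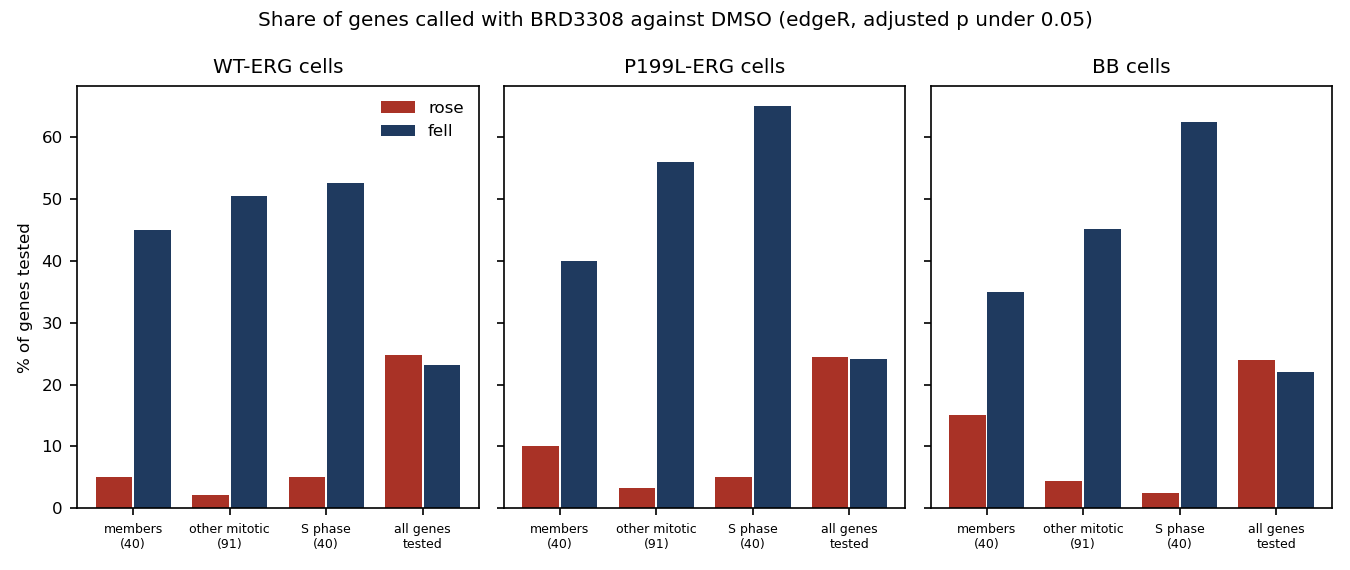
Share of genes that rose (red bars) and fell (blue bars) with BRD3308 against DMSO, in percent of those tested, for the 40 genes (labelled members), 91 other mitotic genes, 40 S phase genes and all 12963 genes tested, in WT-ERG, P199L-ERG and BB cells. All genes tested are nearly balanced (24.7% higher and 23.2% lower in WT-ERG cells), whereas the blue bar is the taller one in each mitotic and S phase list. Not drawn are the genes at or above the level of the lowest of the 40, of which 35.2% fell and 18.7% rose in WT-ERG cells.

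Markers of other myeloid cell types moved with the drug too. Their counts stand beside the 24.7%, 24.4% and 24% of all genes tested that rose in WT-ERG, P199L-ERG and BB cells. The shares that fell were 23.2%, 24.1% and 22%. All 7 monocyte and macrophage markers rose in every construct, led by *Ccr2* (2.06, 2.11 and 2.72 in WT-ERG, P199L-ERG and BB cells) and *Mpeg1* (1.84, 1.97 and 1.53), and their summed level was 2367 to 2627 CPM in BRD3308-treated and 795.1 to 875.6 CPM in DMSO-treated WT-ERG cells, 2768 to 2946 and 1062 to 1153 CPM in BRD3308- and DMSO-treated P199L-ERG cells, and 3553 to 3814 and 1772 to 1933 CPM in BRD3308- and DMSO-treated BB cells. Of 8 neutrophil markers, 5 rose and 1 fell in WT-ERG, 4 rose in P199L-ERG, and 4 rose and 1 fell in BB cells, with sums of 5112 to 6449 CPM against 2145 to 3101 CPM, 4720 to 5474 CPM against 1745 to 2603 CPM, and 4394 to 5932 CPM against 2448 to 3126 CPM, BRD3308 against DMSO in the same order. Among them *Mmp8*, a granule collagenase, rose by 3.52, 4.60 and 3.27, whereas *Retnlg* fell in WT-ERG (-0.83) and *Ngp* in BB cells (-0.30). Of 8 progenitor markers, 2 rose (*Elane* and *Cd34*) in every construct, and 4, 4 and 5 fell, with sums of 25760 to 26980 CPM against 26760 to 28920 CPM in WT-ERG, 26590 to 28040 CPM against 28410 to 31580 CPM in P199L-ERG, and 23430 to 25170 CPM against 26330 to 26880 CPM in BB cells. Of the 3 mast cell and basophil markers tested, *Cpa3*, a protease of these cells, fell in every construct (-1.75, -1.89 and -1.77), whereas *Mcpt8* (-0.042, -0.016 and -0.15) and *Prss34* (-0.58, -0.61 and 0.72) were not called. T cell markers summed to at most 0.7224 CPM. In DMSO and under BRD3308 alike, the monocyte and macrophage sum was lowest in WT-ERG and highest in BB cells. That order was the order of its largest members, *Ly6c2* and *F13a1*, and single markers differed. In DMSO *Ly6c2* averaged 401.2, 609.1 and 1047 CPM in WT-ERG, P199L-ERG and BB cells. *Ccr2* was instead lowest in BB cells, at 83.09, 85.88 and 34.64 CPM in the same order. *Mpeg1* and *Csf1r* were lowest in P199L-ERG cells under both treatments. Across the 40 genes, fold changes were correlated with log2 exon length. For BRD3308 against DMSO the correlation was 0.233 in WT-ERG, 0.392 in P199L-ERG and -0.0132 in BB cells. Between constructs in DMSO it was -0.39 for WT-ERG against BB, -0.594 for P199L-ERG against BB and -0.37 for P199L-ERG against WT-ERG cells. Between constructs under BRD3308 it was 0.0237 to 0.0465. The part of cell type or of exon length in the changes of the 40 genes was not tested. Exons of 10 of the 40 genes overlap a gene on the opposite strand, the longest stretches being 1271 bases of *Kif20a* with *Cdc23*, 911 of *Prc1* with *Rccd1* and 832 of *Kif4* with *Pdzd11*, and since the strand setting of the counting is not given in the sources used here, reads of such pairs may not be told apart.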

How the data were processed

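RNA was extracted with TRIzol, and reads under 30 bp were discarded by the authors, who mapped the rest to the mouse genome (GRCm38) with STAR. Beside STAR, cutadapt, HTSeq and DESeq2 are listed in the submitters' processing notes. For versions, gene annotation and strand setting, nothing is given in the sources used here. The deposited values are raw counts per gene in 24 libraries, without replicates pooled. Symbols were matched to 53706 of 53801 genes.

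Counts were filtered with filterByExpr, scaled with TMM, and fitted with edgeR 4.0.16 (limma 3.58.1, R 4.3.3) with the quasi-likelihood test, 1 coefficient per group for 6 groups in a single model, over the 12963 genes that passed. BRD3308 was compared with DMSO within each construct, constructs within each treatment (9 comparisons), and responses between constructs (3 interactions), with Benjamini-Hochberg adjustment over all genes tested, a threshold of 0.05 and 95% confidence intervals. CPM (counts per 1000000) were computed with TMM-scaled library sizes, and no pseudocount was needed since counts were fitted directly. The fit was tested on simulated data. No pair of replicates was within counting noise, so all 24 libraries were kept.

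The 40 genes and all comparison lists were chosen with earlier results of these data known. Values per library were given for the 2 genes of each role with the smallest adjusted p under BRD3308, for genes called between constructs or against the direction of the median, and from other lists for up to 4 genes with the smallest p and those that went against the list's median.

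Alternatives were RLE scaling, library totals, no filter, DESeq2 1.42.0, only the groups compared, a replicate block, each library left out, and both replicate 4 libraries of DMSO-treated ERG cells left out. The replicate numbers come from the labels. Deviations of same-numbered libraries from their group means were correlated in every pair of P199L-ERG and BB cells with and without BRD3308 (0.121 to 0.488 and 0.194 to 0.588), of P199L-ERG and WT-ERG cells in DMSO (0.164 to 0.632), and under BRD3308 of WT-ERG and BB (0.148 to 0.627), P199L-ERG and BB (0.205 to 0.617) and P199L-ERG and WT-ERG cells (0.125 to 0.575), so the numbers were taken to pair these. The rule was a set cutoff on the lowest same-numbered pair. That pair fell short in BRD3308 against DMSO in WT-ERG cells (0.0666), and in DMSO in WT-ERG (0.0956) and P199L-ERG (0.0934) against BB cells. For BRD3308 against DMSO, the same number was the best match for 2 of 4 libraries in P199L-ERG cells, and also in WT-ERG cells. Calls made with the block alone in P199L-ERG cells thus rest on a weak pairing. Promoter windows and motifs were read from RefSeq tables, and figures were drawn with matplotlib 3.10.9.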

Additional observations from a re-analysis of the deposited data

Results flagged for a closer look

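Within groups of 4 libraries, a library was set apart where its gap to the nearest other one, as a share of the group's whole range, was over Dixon's 95% critical value. The log2 CPM of each of the 40 genes and their mean were examined in 6 groups, or 246 sets, of which 19 met this. Chance alone gives about 1 in 20 such sets. The share is given first for each gene, then the CPM. Replicate 1 of BRD3308-treated WT-ERG cells stood apart from the others for *Aurkb* (0.913, 146 CPM against 148 to 149 CPM), *Pttg1* (0.929, 28.0 CPM against 30.9 to 31.2 CPM) and *Foxm1* (0.95, 109.8 CPM against 101 to 102 CPM). Replicate 4 of DMSO-treated P199L-ERG cells stood apart from the others for *Bub1b* (0.83, 111 CPM against 132 to 136 CPM), *Birc5* (0.91, 198 CPM against 140.0 to 144 CPM) and *Spc25* (0.868, 87.9 CPM against 63.2 to 66.0 CPM). Replicate 3 of DMSO-treated P199L-ERG cells stood apart from the others for *Ccna2* (0.939, 251 CPM against 270.3 to 272 CPM) and *Cenpf* (0.883, 68.8 CPM against 85.1 to 87.5 CPM). Replicate 4 of DMSO-treated WT-ERG cells stood apart from the others for *Kif11* (0.954, 259 CPM against 268.6 to 269.0 CPM) and *Ube2c* (0.875, 211 CPM against 177 to 181 CPM). Replicate 1 of BRD3308-treated P199L-ERG cells stood apart from the others for *Mad2l1* (0.891, 126 CPM against 131 to 132 CPM) and *Racgap1* (0.882, 158 CPM against 172 to 174 CPM). Replicate 3 of BRD3308-treated WT-ERG cells stood apart from the others for *Ndc80* (0.882, 98.7 CPM against 91.9 to 92.7 CPM) and *Spc25* (0.906, 66.1 CPM against 59.3 to 59.9 CPM). Replicate 1 of BRD3308-treated BB cells stood apart from the others for *Mki67* (0.837, 1253 CPM against 1055 to 1085 CPM). Replicate 2 of BRD3308-treated P199L-ERG cells stood apart from the others for *Nusap1* (0.879, 156 CPM against 151 to 152 CPM). Replicate 2 of BRD3308-treated BB cells stood apart from the others for *Ttk* (0.854, 52.8 CPM against 45.2 to 46.3 CPM). Replicate 4 of DMSO-treated BB cells stood apart from the others for *Ndc80* (0.832, 88.9 CPM against 103 to 106 CPM). Replicate 4 of BRD3308-treated WT-ERG cells stood apart from the others for the mean log2 CPM of the 40 genes (0.931, at 6.755).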

How the results depend on the processing

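None of the 87 calls of the 40 genes changed direction under any alternative. Calls lost numbered 2 with RLE scaling, 3 with library totals, 17 with no filter on low counts (28451 genes tested), 2 with DESeq2, 6 with a fit of only the groups compared, 3 without both replicate 4 libraries of DMSO-treated ERG cells, none with the replicate block, and 27 when each library was left out in turn. Calls kept under every alternative were 13 of 20 for BRD3308 in WT-ERG cells, 13 of 20 in P199L-ERG cells and 14 of 20 in BB cells. Between constructs in DMSO they were 5 of 8 for WT-ERG against BB, 3 of 5 for P199L-ERG against BB and 0 of 1 for P199L-ERG against WT-ERG cells, and under BRD3308 7 of 9, 1 of 3 and 0 of 1. The scaling alternatives shifted the median of all genes by at most 0.0162 on the log2 scale. Each of the 40 genes had at least 261 counts in every library.

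Counts of higher genes moved by over 1.5 times as follows. With a fit of only the groups compared, they were 2 in place of 4 for BRD3308 in P199L-ERG cells, 1 in place of 2 for P199L-ERG against BB cells in DMSO, 0 in place of 1 for P199L-ERG against WT-ERG cells in DMSO, and 3 in place of 1 for the same under BRD3308. With no filter they were 3 in place of 6 for BRD3308 in BB cells and 0 in place of 1 for P199L-ERG against WT-ERG cells under BRD3308, 1 gene in place of 2 was lower in P199L-ERG against BB cells under BRD3308, and 3 in place of 0 were called for the difference in response of P199L-ERG and BB cells. In P199L-ERG against BB cells under BRD3308, library totals, the replicate block and leaving out both replicate 4 libraries each gave 2 higher genes in place of 1. In P199L-ERG against WT-ERG cells under BRD3308, DESeq2 gave 2, and leaving out both replicate 4 libraries gave 7, in place of 1, although neither library is in that comparison, and for the difference in response of P199L-ERG and BB cells leaving them out gave 1 in place of 0. Without the filter more genes are tested, and for the other settings the cause was not tested.

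With the replicate block, P199L-ERG against WT-ERG cells under BRD3308, which the numbers were taken to pair, gave 5 higher genes in place of 1. The difference in response of P199L-ERG and BB cells gave 3 in place of 0. It also rests on P199L-ERG and BB cells in DMSO, between which the pairing was not met. Where the pairing was not met, the block gave 3 higher and 26 lower genes for BRD3308 in WT-ERG cells, 2 higher and 8 lower for WT-ERG against BB cells in DMSO, and 7 higher and 4 lower for P199L-ERG against BB cells in DMSO. It raised calls over all 12963 genes tested as well. In the same order, 3574 of these were higher and 3503 lower, 2486 and 2277, and 2529 and 2169. Over the 9 comparisons, 26 of 36 same-numbered pairs held the best correlation of their library. Beyond the genes named in the results, the block changed no call in the paired comparisons.

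Leaving out 1 library at a time gave 1 to 2 higher genes for BRD3308 in WT-ERG cells, 2 to 4 in P199L-ERG cells and 3 to 6 in BB cells, and 16 to 20, 14 to 21 and 11 to 18 lower genes. In DMSO it gave 1 to 2 higher genes for WT-ERG against BB, 2 to 5 for P199L-ERG against BB and 0 to 3 for P199L-ERG against WT-ERG cells. Under BRD3308 it gave 0 to 1 higher and 1 to 2 lower genes for P199L-ERG against BB, and 1 to 3 higher for P199L-ERG against WT-ERG cells.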

Other observations

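Some markers of lineages other than granulocytes and monocytes were also called in the comparisons above. *Cd79a*, a signalling chain of the B cell receptor, rose with BRD3308 by 2.41, 2.32 and 2.42 in WT-ERG, P199L-ERG and BB cells on the log2 scale (edgeR, adjusted p = 2.64e-14, 7.45e-14 and 3.61e-15), while all B lymphocyte markers together summed to 19.86 to 44.28 CPM in a library. *Epor*, the erythropoietin receptor, rose by 1.47, 1.24 and 1.13 in WT-ERG, P199L-ERG and BB cells (adjusted p = 0.00375, 0.0137 and 0.00423), in a marker list whose sum was at most 2.495 CPM. The mast cell and basophil proteases *Cpa3*, *Mcpt8* and *Prss34* were higher in WT-ERG against BB cells in DMSO, by 1.39, 1.14 and 2.42 (edgeR, adjusted p = 5.65e-17, 3.09e-13 and 7.45e-06).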
